A study of Caenorhabditis elegans with 12 samples.

Results

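Whole hermaphrodites of the nematode Caenorhabditis elegans that had been given rotenone around the end of larval life were compared with DMSO worms at 15 days of age. Group membership was taken from the labels alone, and the comparison holds 6 of the 12 libraries of the series, 3 of rotenone worms and 3 of DMSO worms, all of N2, the wild-type laboratory strain. Rotenone had been given at 100 nM for 24 h, starting in L4, the larval stage before adulthood. Control worms were exposed to 0.1% dimethyl sulfoxide (DMSO), the usual solvent of rotenone. How long that exposure lasted, and whether rotenone worms also had the solvent, is not stated. The other 6 libraries hold the same treatments at 5 days of age, 3 libraries in each group. From what event the age was reckoned and how progeny were removed is likewise not stated. Since no label says that the replicates were separate cultures, each p-value reflects no more than the spread among these libraries, and that spread may be technical. The RNA came from whole animals, in which fewer cells of a type and less RNA per cell cannot be told apart.

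Rotenone blocks complex I of the respiratory chain, the enzyme that takes electrons from NADH, and most of its subunits are encoded in the nucleus while a few are encoded in mitochondrial DNA. In C. elegans, fasting is known to raise genes of fatty acid use such as acs-2 through the nuclear receptor NHR-49, and icl-1 encodes the enzyme of the glyoxylate cycle, by which worms make sugar from fat. The monooxygenase fmo-2 is known to respond to fasting and to hypoxia, and cytochromes P450 and UDP-glucuronosyltransferases modify and conjugate foreign compounds.

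Of 17166 genes tested, 70 differed between rotenone and DMSO worms at 15 days (0.408%, edgeR quasi-likelihood F test with Benjamini-Hochberg adjustment, adjusted p under 0.05). Of these, 48 were higher after rotenone (0.28% of genes tested) and 22 were lower (0.128%). With library totals in place of TMM factors the split was 41 higher and 33 lower, and with the sequencing lane as a block it was 63 higher and 55 lower. Counts assigned to genes were 41171323 to 52769067 per rotenone library and 34307432 to 48687629 per DMSO library, and DMSO replicate 2 stood apart from the other 5 libraries on the leading principal component (28.7% of the variance). All 70 genes are protein-coding, and each moved in the same direction in the pairs of libraries from each of the 3 lanes. That agreement nearly follows from the calls, which used the same libraries, and is no separate evidence. The 3 rotenone libraries lay wholly above or below the 3 DMSO libraries in 68 of the 70, as they did in 1904 of all genes tested (11.1%). Genes with an unadjusted p under 0.05 numbered 1236 (7.2%). At 5 days 7668 genes were called (44.7%), 3662 higher (21.3%) and 4006 lower (23.3%). With library totals the median of all genes at 5 days moved to 0.15, beside 0.03 with TMM, and 6500 were higher and 1772 lower, so the 5-day counts given below are relative to the TMM scaling.

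The differences were small. The median size among the 70 genes was 0.33 on the log2 scale, a 1.26-fold difference, and 54 of the 70 differed by less than 1.5-fold. A difference of 2-fold or more was found in 9 genes, of which 4 were higher and 5 lower. The smallest difference called was 0.16 on the log2 scale, and the median standard error was 0.038 over the 7752 genes with a mean of at least 10 CPM in either group (CPM being a gene's share of the library's scaled counts). In 7725 of these 7752 (99.7%) the 95% interval of the difference lay within 0.5 of 0 on the log2 scale.

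Single libraries weighed on the counts. Without DMSO replicate 1, 25 genes were higher and 6 lower, without DMSO replicate 2 33 and 21, and without DMSO replicate 3 45 and 29. Without rotenone replicate 1 there were 41 higher and 36 lower, without rotenone replicate 2 34 and 11, and without rotenone replicate 3 34 and 6. The model also draws its spread from the 5-day libraries, and without rotenone replicate 1 of that age 33 genes were higher and 9 lower, and without its replicate 2 44 and 12. The genes that passed in each of the 6 fits without a 15-day library numbered 21, of which 18 were higher after rotenone and 3 lower. They were acs-2, fmo-2, B0205.13, B0205.14, cyp-33C8, adh-1, icl-1, aqp-1, F45E10.2, cysl-2, aqp-7, slc-17.4, oac-14, endu-2, F21C10.10, pnp-1, mak-1 and acer-1 among the rises, and ugt-44, ZK1290.5 and F31F7.1 among the falls. For the other 49 called genes, which did not pass in at least 1 of those 6 fits, ranges of the edgeR adjusted p with 1 library left out are over the same 6 fits.

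**Figure D1:**
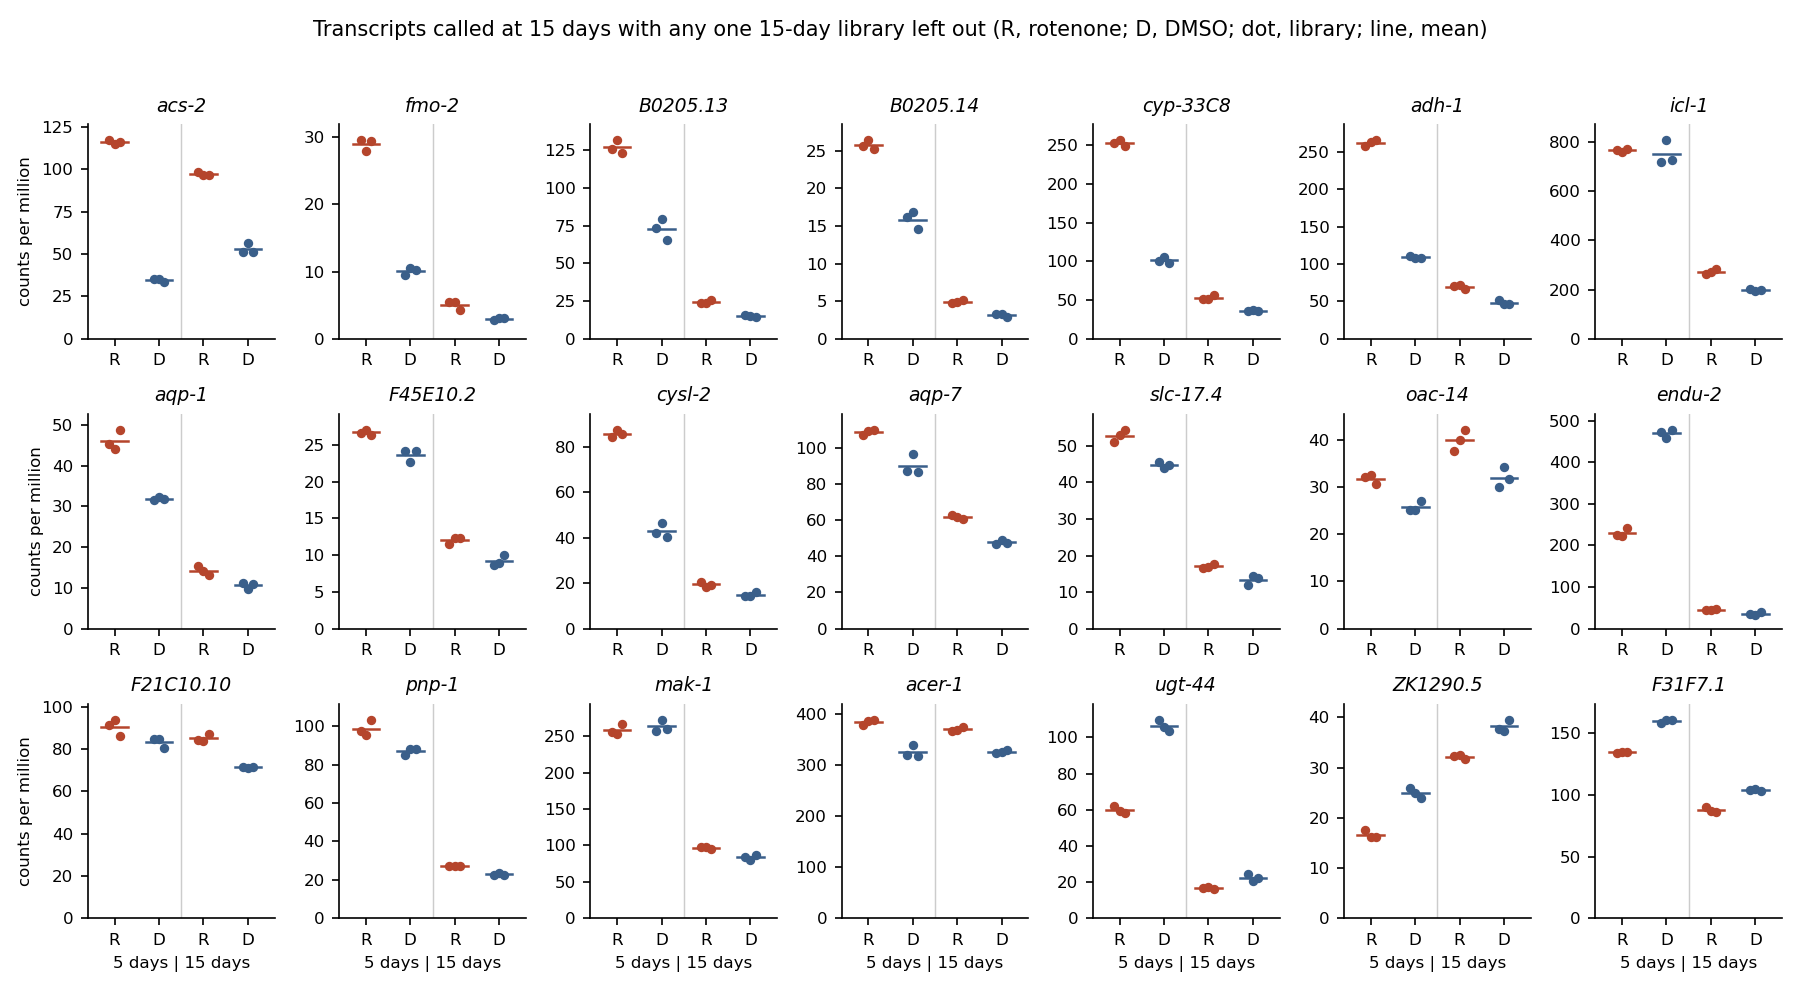
CPM (y axis, from 0) of the 21 genes called at 15 days with any 1 of the 6 libraries of that age left out, in rotenone (R, red) and DMSO (D, blue) worms at 5 days (left pair) and 15 days (right pair). Dots are libraries, 3 in each group, and lines are means. At 15 days the dots of the groups do not overlap in any of the 21 panels, while icl-1 and mak-1 overlap at 5 days and endu-2 is lower after rotenone at 5 days and higher at 15 days.

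Among called genes of fatty acid activation and beta-oxidation, acs-2 had the largest difference (WBGene00009221, chromosome V, 15567394 to 15569897, in the coordinates of WBcel235). It encodes a mitochondrial acyl-CoA synthetase that primes fatty acids for oxidation. It stood at 98.3, 96.8 and 96.8 CPM in the 3 rotenone libraries, against 51.4, 56.3 and 51.3 CPM in the 3 DMSO libraries. The log2 difference was 0.88 ± 0.04 (adjusted p = 3.04e-11), and the lowest rotenone library lay well above the highest DMSO library. The difference was 0.86 to 0.92 in the 6 fits that left a library out, and it was smaller than at 5 days, where it was 1.74 ± 0.04 (difference between the ages -0.87 ± 0.05, adjusted p = 1.22e-09). Another synthetase of the family, acs-11, stood at 94.9, 98.3 and 94.7 CPM after rotenone and 82.3, 87.1 and 83.1 CPM in DMSO, a log2 difference of 0.19 ± 0.04 (adjusted p = 0.0276, and 0.0297 to 0.131 with 1 library left out). It did not pass at 5 days, with a log2 difference of 0.07 ± 0.04. Of the 54 tested genes of fatty acid activation and beta-oxidation these were the only 2 called, while 34 lay above 0 and 20 below. An unadjusted p under 0.05, in either direction, was found in 13 of the 54 (7.2% of all genes tested). Log2 differences in the list ran from -0.71 to 1.46, both ends in genes that were not called. With library totals 1 gene of the list was called higher and 1 lower at 15 days. The median of the list was 0.02, beside 0.002 over all genes tested. At 5 days 13 rose and 18 fell, with a median of -0.03, or 23 and 10 with a median of 0.09 under library totals.

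Peroxisomal beta-oxidation shortens long and very long fatty acids and makes the side chains of ascaroside pheromones. Its acyl-CoA oxidase acox-1.1 rose to 42.3, 39.97 and 42.5 CPM, against 35.2, 36.4 and 37.4 CPM in DMSO, a log2 difference of 0.20 ± 0.04 (adjusted p = 0.0272, and 0.0172 to 0.136 with 1 library left out). The thiolase daf-22, which carries out the last step of each round, rose to 39.8, 38.6 and 40.03 CPM, against 34.7, 34.3 and 35.2 CPM in DMSO, and had been lower after rotenone at 5 days (0.18 ± 0.03 at 15 days and -0.28 ± 0.03 at 5 days). Its adjusted p was 0.0214, and 0.022 to 0.0779 with 1 library left out. The related oxidase acox-1.5 fell to 13.002, 12.5 and 11.8 CPM, against 17.04, 13.7 and 15.2 CPM in DMSO (log2 difference -0.30 ± 0.06, adjusted p = 0.0461, and 0.0131 to 0.305 with 1 library left out). The rotenone and DMSO libraries did not overlap for any of these 3 genes, which were the 3 called among 21 tested of the list. The fatty acid amide hydrolase faah-2 rose by 0.19 ± 0.04 (adjusted p = 0.0419, and 0.0383 to 0.251 with 1 library left out).

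The fatty acid genes hacd-1, fat-5 and fat-7, which were named for their large differences at 5 days, were much nearer to 0 at 15 days. hacd-1, a hydroxyacyl-CoA dehydrogenase, stood at 40.05 ± 3.52 CPM after rotenone and 42.5 ± 1.87 CPM in DMSO (SD, n = 3), a log2 difference of -0.08 ± 0.05 with a 95% interval of -0.20 to 0.03. At 5 days its log2 difference was 1.81 ± 0.05, and the difference between the ages was -1.89 ± 0.07 (adjusted p = 3.75e-12). The desaturases fat-5 and fat-7, which make monounsaturated fatty acids, had log2 differences of -0.12 ± 0.04 and -0.03 ± 0.13 at 15 days. Neither passed at 15 days, whereas at 5 days they were at -1.93 ± 0.05 and -2.02 ± 0.10, differences between the ages of 1.81 and 1.99 (adjusted p = 2.39e-12 and 7.78e-08). None of 15 tested desaturases and elongases was called at 15 days. acdh-1, an acyl-CoA dehydrogenase known as a reporter of vitamin B12 status, was at -0.31 ± 0.07 (adjusted p = 0.0627) and passed with the lane as a block (-0.31, adjusted p = 0.0338).

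In the glyoxylate cycle icl-1 (WBGene00001564, chromosome V, 724332 to 728004), which joins isocitrate lyase and malate synthase in 1 protein, rose to 262, 272 and 282 CPM, against 202, 194 and 197 CPM in DMSO. The log2 difference was 0.46 ± 0.04 (adjusted p = 1.49e-06), and the groups were far apart for the spread within them. At 5 days the gene stood at 766, 758 and 769.6 CPM after rotenone and 717, 807 and 725 CPM in DMSO, groups that overlapped. The difference between the ages was 0.43 ± 0.05 (adjusted p = 1.14e-05). Of 25 tested genes of the citric acid and glyoxylate cycles icl-1 was the only one called, and 23 had a log2 difference above 0, with a median of 0.03 (50.8% of all genes tested lay above 0). The succinate dehydrogenase subunit sdha-1 (0.12 ± 0.04, adjusted p = 0.417) and the aconitase aco-1 (0.11 ± 0.04, adjusted p = 0.447) did not pass.

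A few enzymes of sugar and alcohol metabolism rose. pck-1, phosphoenolpyruvate carboxykinase, which commits carbon to sugar synthesis, stood at 91.2, 93.6 and 85.6 CPM after rotenone and 76.3, 69.5 and 71.3 CPM in DMSO, a log2 difference of 0.32 ± 0.06 (adjusted p = 0.0128, and 0.0091 to 0.0534 with 1 library left out). The aldolase aldo-1 stood at 90.3, 93.4 and 97.7 CPM after rotenone and 77.6, 78.5 and 79.1 CPM in DMSO, a difference of 0.26 ± 0.04 (adjusted p = 0.0125, and 0.00995 to 0.0523 with 1 library left out). Both groups were separate in each gene. These were the 2 called of 23 tested genes of glycolysis and gluconeogenesis, of which 17 lay above 0 and 6 below. In 8 of the 23 the rotenone libraries lay wholly above the DMSO libraries (5.46% of all genes tested did), and in 1 wholly below (5.63%). The glyceraldehyde-3-phosphate dehydrogenases gpd-2 (0.17 ± 0.04) and gpd-3 (0.19 ± 0.04) were among these 8 and did not pass (adjusted p = 0.12 and 0.0701), though gpd-3 did with the lane as a block (0.19, adjusted p = 0.0235). These gpd genes are near-identical copies, and how reads with several matches were counted is not given in the sources used here. The alcohol dehydrogenase adh-1 stood at 70.9, 72.3 and 66.5 CPM after rotenone and 51.9, 46.8 and 46.1 CPM in DMSO, and its log2 difference of 0.54 ± 0.04 (adjusted p = 5.03e-07) was smaller than the 1.26 ± 0.04 of 5 days (difference -0.73 ± 0.06, adjusted p = 2.88e-08). It was the only gene called of 45 tested alcohol, aldehyde and short-chain dehydrogenases.

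Genes of glycerol handling moved on each side. gpdh-1, the glycerol-3-phosphate dehydrogenase that worms use to make glycerol under salt stress, fell to 6.01, 6.37 and 5.97 CPM, against 7.76, 7.45 and 8.22 CPM in DMSO (log2 difference -0.36 ± 0.07, adjusted p = 0.0214, and 0.0315 to 0.105 with 1 library left out). 2 aquaporins, channels that pass water and, in some members, glycerol, rose, and aqp-8 of the same family stood at -0.29 (adjusted p = 0.0575) and fell with the lane as a block (-0.29, adjusted p = 0.018). aqp-1 stood at 15.4, 14.1 and 13.2 CPM after rotenone and 11.2, 9.78 and 10.98 CPM in DMSO, a log2 difference of 0.42 ± 0.07 (adjusted p = 0.00505), and at 5 days its difference was 0.53 ± 0.05. aqp-7 stood at 62.7, 61.5 and 60.6 CPM after rotenone and 46.8, 49.1 and 47.5 CPM in DMSO, a difference of 0.37 ± 0.04 (adjusted p = 7.85e-05), beside 0.27 ± 0.04 at 5 days. In all 3 genes the groups did not overlap, and the difference between the ages did not pass for the aquaporins (adjusted p = 0.346 and 0.232), whereas the fall of gpdh-1 was smaller at 15 days than at 5 days (difference 0.77 ± 0.08, adjusted p = 2.67e-06).

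Among enzymes that handle foreign compounds a few members of large families differed. fmo-2 (WBGene00001477, chromosome IV, 10682524 to 10684367), a flavin-containing monooxygenase, rose to 5.48, 5.46 and 4.28 CPM, against 2.72, 3.06 and 3.15 CPM in DMSO, a log2 difference of 0.77 ± 0.10 (adjusted p = 0.000758). It was the only gene called of 5 tested members of its family, and its difference was about the midpoint between 0 and the 1.53 ± 0.06 of 5 days (difference -0.76 ± 0.12, adjusted p = 0.000166). The cytochrome P450 cyp-33C8 (WBGene00019967, chromosome V, 3800782 to 3803542) stood at 51.8, 51.4 and 56.7 CPM after rotenone and 35.99, 36.7 and 35.6 CPM in DMSO, a difference of 0.56 ± 0.04 (adjusted p = 2.58e-07). It too was smaller than at 5 days, where it was 1.32 ± 0.04 (difference -0.75 ± 0.05, adjusted p = 1.13e-08). cyp-13B1 (0.45 ± 0.08, adjusted p = 0.0159, and 0.00465 to 0.0533 with 1 library left out) and cyp-13A5 (0.22 ± 0.04, adjusted p = 0.0237, and 0.00969 to 0.123) also rose. Of 72 tested P450 genes these 3 were called, while 29 of the 72 lay above 0 and 43 below, with a median of -0.02. cyp-13A7 and cyp-13A8, which had risen by 1.63 ± 0.10 and 1.77 ± 0.10 at 5 days, were at -0.05 ± 0.20 and 0.57 ± 0.24 at 15 days and did not pass, both with group means near or under 1 CPM.

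Conjugating enzymes split. ugt-44 (WBGene00008486, chromosome IV, 10469741 to 10471899), a UDP-glucuronosyltransferase, fell to 16.9, 17.4 and 16.4 CPM, against 24.3, 20.4 and 22.2 CPM in DMSO, a log2 difference of -0.41 ± 0.06 (adjusted p = 0.00115). It was 1 of 3 falls that passed with any 15-day library left out. ugt-2 rose to 11.4, 11.1 and 11.2 CPM, against 9.05, 8.90 and 8.88 CPM in DMSO, a difference of 0.33 ± 0.07 (adjusted p = 0.0288). The groups did not overlap, and the call was lost in each of the 6 fits that left a library out (adjusted p 0.0695 to 0.09). The other 63 of 65 tested family members were not called. None of 45 tested glutathione S-transferases was called, gst-14 stood at 0.09 ± 0.24, beside 1.74 ± 0.06 at 5 days, and the reporter of oxidative stress gst-4 at -0.12 ± 0.11, beside 0.30 ± 0.07. The glutathione peroxidase gpx-3 was the only gene called of 35 tested antioxidant enzymes. It fell to 3.59, 3.45 and 3.27 CPM, against 4.49, 4.89 and 4.40 CPM in DMSO (log2 difference -0.41 ± 0.09, adjusted p = 0.0497), and did not pass with any 15-day library left out (adjusted p 0.0816 to 0.206).

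Of the hypoxia response, cysl-2 and cysl-1 were called of 15 tested genes. cysl-2, a cysteine synthase family member and a target of the hypoxia factor HIF-1, stood at 20.5, 18.5 and 19.4 CPM after rotenone and 14.5, 14.2 and 16.17 CPM in DMSO (log2 difference 0.38 ± 0.06, adjusted p = 0.00779). Its difference at 5 days was 0.998 ± 0.05, larger than at 15 days (difference -0.62 ± 0.08, adjusted p = 1.64e-05). cysl-1, which acts upstream of HIF-1, stood at 14.5, 14.1 and 14.3 CPM after rotenone and 12.4, 11.9 and 12.4 CPM in DMSO, a difference of 0.22 ± 0.04 (adjusted p = 0.0288), and lost its call in each fit that left a library out (0.0554 to 0.119). rhy-1, another HIF-1 target, was at 0.25 ± 0.07 with separate groups and did not pass (adjusted p = 0.143). At 5 days 9 genes of this list rose and 2 fell, and its median was 0.06 at 15 days, beside 0.28 at 5 days. By DESeq2 1 of the 15 was called at 15 days.

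Some of the 70 genes encode transcription factors. Of 218 tested nuclear hormone receptors 2 were called, beside 0.408% of all genes tested. nhr-17 rose to 19.1, 17.8 and 22.01 CPM, against 15.4, 14.7 and 16.3 CPM in DMSO (log2 difference 0.34 ± 0.07, adjusted p = 0.0259, and 0.0108 to 0.0938 with 1 library left out). nhr-61 rose to 36.4, 34.1 and 36.98 CPM, against 30.4, 29.2 and 31.01 CPM in DMSO (0.25 ± 0.05, adjusted p = 0.0276, and 0.022 to 0.116). No other receptor was called, whereas 100 had risen and 13 had fallen at 5 days. mxl-3, a helix-loop-helix factor known to repress lysosomal lipases in fed worms, rose to 34.8, 31.02 and 32.6 CPM, against 27.6, 29.7 and 26.9 CPM in DMSO (0.23 ± 0.05, adjusted p = 0.0288, and 0.0148 to 0.119 with 1 library left out). ets-4, an ETS factor known to affect fat and lifespan, fell to 20.1, 19.5 and 19.2 CPM, against 23.7, 24.01 and 21.4 CPM in DMSO (-0.23 ± 0.05, adjusted p = 0.0288, and 0.00496 to 0.182). The groups were separate in each of these genes, and neither mxl-3 (-0.07) nor ets-4 (0.06) passed at 5 days.

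The pair B0205.14 and B0205.13 lies on chromosome I with 368 bases between the genes (WBGene00044646 at 10726088 to 10727386 and WBGene00044644 at 10727755 to 10728808). B0205.13 stood at 23.9, 23.9 and 25.9 CPM after rotenone and 15.8, 14.99 and 14.4 CPM in DMSO, a log2 difference of 0.71 ± 0.07 (adjusted p = 1.06e-05). B0205.14 stood at 4.70, 4.89 and 5.15 CPM after rotenone and 3.28, 3.33 and 2.95 CPM in DMSO, a difference of 0.63 ± 0.09 (adjusted p = 0.00179). The differences were close to those of 5 days, 0.80 ± 0.05 and 0.70 ± 0.05, and the difference between the ages passed for neither gene (adjusted p = 0.477 and 0.682). Reads of such close genes may be shared, and whether counting used the strand is not given in the sources used here. Among the remaining genes that passed with any library left out, slc-17.4 of the solute carrier family 17 (0.35 ± 0.06, adjusted p = 0.00775), the acyltransferase homologue oac-14 (0.32 ± 0.05, adjusted p = 0.00553) and the purine nucleoside phosphorylase pnp-1 (0.25 ± 0.04, adjusted p = 0.00779) rose. So did F45E10.2 (0.38 ± 0.06), F21C10.10 (0.25 ± 0.04), the kinase homologue mak-1 (0.21 ± 0.03) and acer-1 (0.18 ± 0.03). ZK1290.5 fell to 32.4, 32.6 and 31.7 CPM, against 37.7, 37.4 and 39.6 CPM in DMSO (-0.25 ± 0.04, adjusted p = 0.00891). F31F7.1 fell to 90.5, 86.7 and 86.5 CPM, against 104.03, 104.4 and 103 CPM in DMSO (-0.24 ± 0.03, adjusted p = 0.000146), and its DMSO libraries lie almost on 1 value.

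Of the 70 genes, 47 had been called in the same direction at 5 days (67.1% of the 70 and 0.613% of the 7668 called at 5 days). The comparisons at the 2 ages share no library, though they share the 3 lanes. They also share 1 model, which draws each gene's spread from all 12 libraries, so the calls at the 2 ages are not independent. Among rises the share was 36 of 48 (75% of them, and 0.983% of the 3662 rises at 5 days). Among falls it was 11 of 22 (50% of them, and 0.275% of the 4006 falls at 5 days). Of all genes tested, 21.3% rose and 23.3% fell at 5 days. The difference between the ages passed for 19 of the 47 genes, of which 16 were nearer to 0 at 15 days, and did not pass for 28 (25.7% of all genes tested passed). The ratio of the 15-day to the 5-day log2 difference ranged from 0.295 to 3.41 over the 47 genes, with a median of 0.901. These genes had to pass at both ages, which raises the ratio. It does not describe the genes called at 5 days as a whole. chca-1 (0.44 at 15 days and 1.30 at 5 days, adjusted p at 15 days 0.0103 to 0.124 with 1 library left out), ugt-2 (0.33 at 15 days and 0.95 at 5 days) and gpdh-1 (-0.36 at 15 days and -1.13 at 5 days) were much nearer to 0 at 15 days. aqp-7, pck-1 and smd-1, an S-adenosylmethionine decarboxylase of polyamine synthesis (-0.32 at 15 days and -0.29 at 5 days, adjusted p at 15 days 0.022 to 0.113 with 1 library left out), were about as far from 0 at each age.

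Genes called at 5 days had medians near 0 at 15 days. The 3662 genes higher after rotenone at 5 days had a median log2 difference of 0.024 at 15 days, beside 0.318 at 5 days and 0.002 at 15 days over all genes tested. The 4006 genes lower at 5 days had a median of -0.009 at 15 days, beside -0.22 at 5 days. Of the 115 genes at least 2-fold higher at 5 days, 68 lay above 0 at 15 days, 5 were called higher, 5 were still at least 2-fold higher, and the median was 0.093, beside 1.23 at 5 days. Of the 133 genes at least 2-fold lower at 5 days, 73.7% lay below 0 at 15 days, 2 were called lower and 2 higher, and the median was -0.14, beside -1.23 at 5 days. The difference between the ages passed for 53 of the 115 and 109 of the 133 (25.7% of all genes tested passed). Both sets were chosen by the 5-day values that this test compares, so these counts are no separate evidence. pud-3, which had fallen furthest at 5 days, stood at 14.9 ± 4.75 CPM after rotenone and 17.8 ± 1.22 CPM in DMSO at 15 days (SD, n = 3). Its log2 difference was -0.23 ± 0.14, beside -3.80 ± 0.19 at 5 days, and pud-4 was at -0.25 ± 0.13, beside -3.07 ± 0.15.

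**Figure D2:**
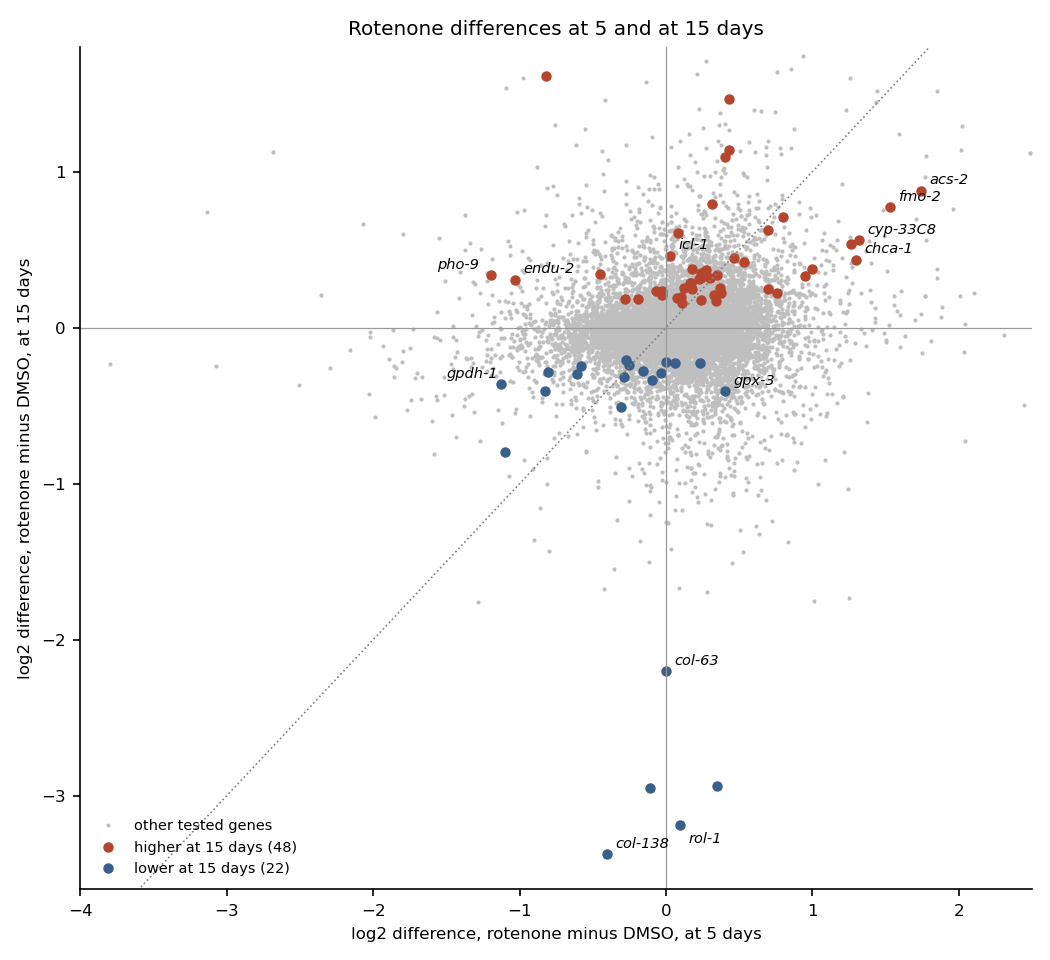
Log2 difference between rotenone and DMSO worms at 5 days (x axis) and at 15 days (y axis) for the genes tested. Red and blue points are the 48 genes higher and the 22 lower at 15 days, grey points the others, the dotted line marks equal differences, and 8 grey points lie outside the axes. acs-2 (0.88 at 15 days and 1.74 at 5 days) and fmo-2 (0.77 and 1.53 at the same ages) lie at the upper right, pho-9 and endu-2 at the upper left, and the 5 collagens that fell lie at the bottom near 0 on the x axis.

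In 8 of the 70 genes the directions at the 2 ages were opposite. In each the difference between the ages passed, which nearly follows from 2 opposite calls and is no separate evidence. endu-2 (WBGene00019779, chromosome X, 8242301 to 8247869), a calcium-dependent endoribonuclease, was higher at 15 days, at 45.4, 43.5 and 46.2 CPM after rotenone and 35.7, 33.7 and 39.3 CPM in DMSO, a log2 difference of 0.31 ± 0.05 (adjusted p = 0.00553). At 5 days it stood at 225, 223 and 242 CPM after rotenone and 472, 459 and 478 CPM in DMSO, a difference of -1.03 ± 0.04. Its groups were separate at both ages, the rotenone libraries above the DMSO libraries at 15 days and below them at 5 days. The acid phosphatase pho-9 was likewise at 0.34 ± 0.06 at 15 days and -1.19 ± 0.05 at 5 days, with 17.6, 15.8 and 15.8 CPM after rotenone and 12.4, 13.6 and 13.2 CPM in DMSO at 15 days (adjusted p = 0.0178, and 0.0212 to 0.0993 with 1 library left out). C29F7.2 (0.34 at 15 days and -0.45 at 5 days), faah-2 (0.19 at 15 days and -0.19 at 5 days), daf-22 (0.18 at 15 days and -0.28 at 5 days) and C23G10.11 (1.61 at 15 days and -0.82 at 5 days) had the same pattern. With 1 library left out, the adjusted p at 15 days was 0.00795 to 0.159 for C29F7.2 and 0.0232 to 0.0534 for C23G10.11. C23G10.11 is counted at 0.573, 0.719 and 0.619 CPM after rotenone and 0.277, 0.118 and 0.208 CPM in DMSO, so its size is uncertain. gpx-3 (-0.41 at 15 days and 0.40 at 5 days) and srap-1 (-0.22 at 15 days and 0.23 at 5 days) were lower at 15 days and higher at 5 days, and the adjusted p of srap-1 at 15 days was 0.0247 to 0.235 with 1 library left out.

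Another 15 of the 70 genes had not passed at 5 days, 6 of the rises and 9 of the falls. The rises were icl-1, mxl-3, mak-1, acs-11, F18E3.13 (0.60 ± 0.13, adjusted p 0.035 to 0.16 with 1 library left out) and C06B3.6 (0.24 ± 0.05, adjusted p 0.0247 to 0.14). The falls were 5 collagens, ATP6, ND4, ets-4 and R07E3.4 (-0.22 ± 0.05, adjusted p 0.0409 to 0.199 with 1 library left out). For icl-1, mxl-3, mak-1, F18E3.13, C06B3.6, ND4, ets-4 and R07E3.4 the difference between the ages passed, and for the other 7 it did not.

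All 12 tested protein-coding genes of the mitochondrial genome had lower mean levels after rotenone than in DMSO at 15 days, and 2 of them passed the test. ND4, a subunit of complex I (WBGene00010963, chromosome MtDNA, 6506 to 7808), fell to 136, 134 and 126 CPM, against 169.9, 161 and 154 CPM in DMSO, a log2 difference of -0.29 ± 0.05 (adjusted p = 0.0165). ATP6, a subunit of the ATP synthase (WBGene00010960, chromosome MtDNA, 2634 to 3235), fell to 378, 329.8 and 348 CPM, against 509.9, 414 and 410.2 CPM in DMSO, a difference of -0.34 ± 0.07 (adjusted p = 0.0345). The rotenone libraries of each gene lay below the DMSO libraries, of which replicate 1 was the highest. The cytochrome c oxidase subunit COX1 stood at 1472, 1316 and 1343 CPM after rotenone and 1839, 1531 and 1560.2 CPM in DMSO (log2 difference -0.26 ± 0.06), and did not pass (adjusted p = 0.121). COX3 (-0.25 ± 0.06), COX2 (-0.23 ± 0.06), CYTB (-0.21 ± 0.06), ND1 (-0.25 ± 0.08), ND5 (-0.35 ± 0.09), ND3 (-0.51 ± 0.14), ND6 (-0.54 ± 0.18), ND2 (-0.33 ± 0.19) and ND4L (-0.30 ± 0.25) did not pass either.

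The 12 log2 differences, all below 0 (49.2% of all genes tested lay below 0), had a median of -0.30, beside -0.002 at 5 days, where 0 of the 12 were called (0 of the 12 also at an unadjusted p under 0.05). Under library totals 1 of the 12 rose at 5 days, with a median of 0.12. In 8 of the 12 the rotenone libraries lay wholly below the DMSO libraries, as in 5.63% of all genes tested, and 10 of the 12 had an unadjusted p under 0.05 at 15 days. These genes are made as parts of long shared transcripts and are not independent of each other. With the lane as a block 8 of the 12 were called, by DESeq2 1, without DMSO replicate 3 5, and without the filter on low counts 11. With 1 library left out the adjusted p was 0.0156 to 0.104 for ND4 and 0.0247 to 0.177 for ATP6. Without DMSO replicate 1 none passed and the median was -0.22, and without rotenone replicate 3 none passed and the median was -0.28. The 12 genes took 0.383, 0.356 and 0.346% of the counts of the rotenone libraries, against 0.487, 0.420 and 0.406% in the DMSO libraries. The means were 0.362 ± 0.0189% after rotenone and 0.438 ± 0.0435% in DMSO (SD, n = 3 each), and a two-sided exact permutation test gave p = 0.1, the smallest that 3 libraries against 3 allow. At 5 days the means were 0.562 ± 0.0425% after rotenone and 0.527 ± 0.042% in DMSO (SD, n = 3 each). The difference between the ages passed for 7 of the 12, among them ND4 (-0.25 ± 0.07, adjusted p = 0.0163).

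**Figure D3:**
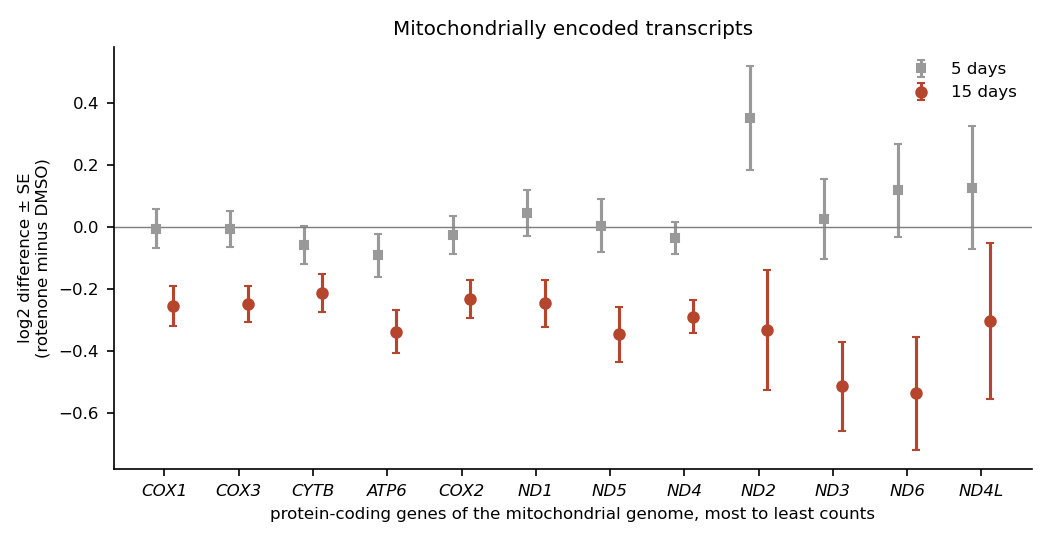
Log2 difference between rotenone and DMSO worms (y axis, with the standard error of the edgeR fit) for each of 12 mitochondrially encoded proteins, ordered from most to least counts in DMSO worms at 15 days, at 5 days (grey squares) and 15 days (red circles). The 15-day points lie between -0.54 and -0.21, and the 5-day points scatter about 0.

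None of the nuclear genes tested from the lists of the respiratory chain was called at 15 days. Of 30 names listed for complex I 15 matched a gene name in the annotation and were tested, the other names were not looked up further, and the 15 had a median of 0.002 and values between -0.02 and 0.06. At 5 days 13 of the 15 had fallen, with a median of -0.21 (9 falls, 2 rises and -0.09 under library totals), and the difference between the ages passed for 12. The complex I subunit gas-1 stood at 58.1 ± 2.42 CPM after rotenone and 55.8 ± 1.204 CPM in DMSO (SD, n = 3), a log2 difference of 0.06 ± 0.04 with a 95% interval of -0.03 to 0.15. Of 35 genes of complexes II to V 30 lay above 0, 3 had an unadjusted p under 0.05, the values lay between -0.03 and 0.43, and the median was 0.02, beside 2 rises, 25 falls and a median of -0.13 at 5 days (5 rises, 7 falls and -0.01 under library totals). Of 69 mitochondrial ribosomal protein genes none was called, with a median of -0.01.

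Cuticle genes held the largest differences, at low levels and with unequal libraries. The collagen genes col-138, rol-1, col-49, col-175 and col-63 fell, with log2 differences of -3.38, -3.19, -2.95, -2.94 and -2.204. Their adjusted p values were 0.0288, 0.0276, 0.0288, 0.0345 and 0.0459, and with 1 library left out the highest was 0.163 to 0.31 over the 5 genes. col-138 (WBGene00000711, chromosome IV, 17182884 to 17183729) stood at 0.802, 0.0496 and 0.0248 CPM in rotenone replicates 1, 2 and 3, against 7.06, 2.74 and 0.851 CPM in the DMSO replicates. rol-1 stood at 0.802, 0 and 0.0743 CPM after rotenone and 6.05, 2.18 and 1.06 CPM in DMSO. In each of the 5 genes DMSO replicate 1 was the highest library and rotenone replicate 1 was the highest of its group, and in col-63 the groups overlapped. The collagens col-165 (5.63, 2.16 and 2.57 CPM after rotenone and 1.084, 1.89 and 1.079 CPM in DMSO, log2 difference 1.47 ± 0.32, adjusted p = 0.0461) and col-74 (4.26, 2.60 and 2.302 CPM after rotenone and 1.11, 1.65 and 1.54 CPM in DMSO, 1.14 ± 0.21, adjusted p = 0.0178) rose. So did the cuticlin cut-3 (5.17, 2.88 and 2.65 CPM after rotenone and 1.66, 2.33 and 1.33 CPM in DMSO, 1.096 ± 0.23, adjusted p = 0.0345) and mtre-1 (0.79 ± 0.15). The adjusted p with 1 library left out was 0.0122 to 0.199 for col-165, 0.00334 to 0.1 for col-74, 0.0101 to 0.176 for cut-3 and 0.0126 to 0.0867 for mtre-1. In col-165, col-74, cut-3 and mtre-1 rotenone replicate 1 was again the highest library.

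These calls depended on single libraries. Of 158 tested collagens 2 rose and 5 fell, with a median of -0.08, or 0.01 without DMSO replicate 1 and 0.009 without rotenone replicate 3. Without DMSO replicate 1 no collagen was called, without rotenone replicate 1 1 rose and 16 fell, without rotenone replicate 2 2 rose and none fell, and without rotenone replicate 3 6 rose and none fell. Without DMSO replicate 2 there were 2 rises and 3 falls, and without DMSO replicate 3 1 rise and 10 falls. With the 6 libraries of 15 days fitted alone none was called, with DESeq2 2 rose and none fell, and with the lane as a block 2 rose and 12 fell. In 5 collagens the rotenone libraries lay wholly above the DMSO libraries (5.46% of all genes tested did) and in 6 wholly below (5.63%). The summed level of all 158 was 1766 to 2156 CPM in the rotenone libraries and 2009 to 2268 CPM in the DMSO libraries. Markers of late embryos and larvae, 19 genes of which none was at 0 in any 15-day library, summed to 661 to 713 CPM in the rotenone libraries and 656 to 693 CPM in the DMSO libraries. Their part in the cuticle differences was not tested.

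**Figure D4:**
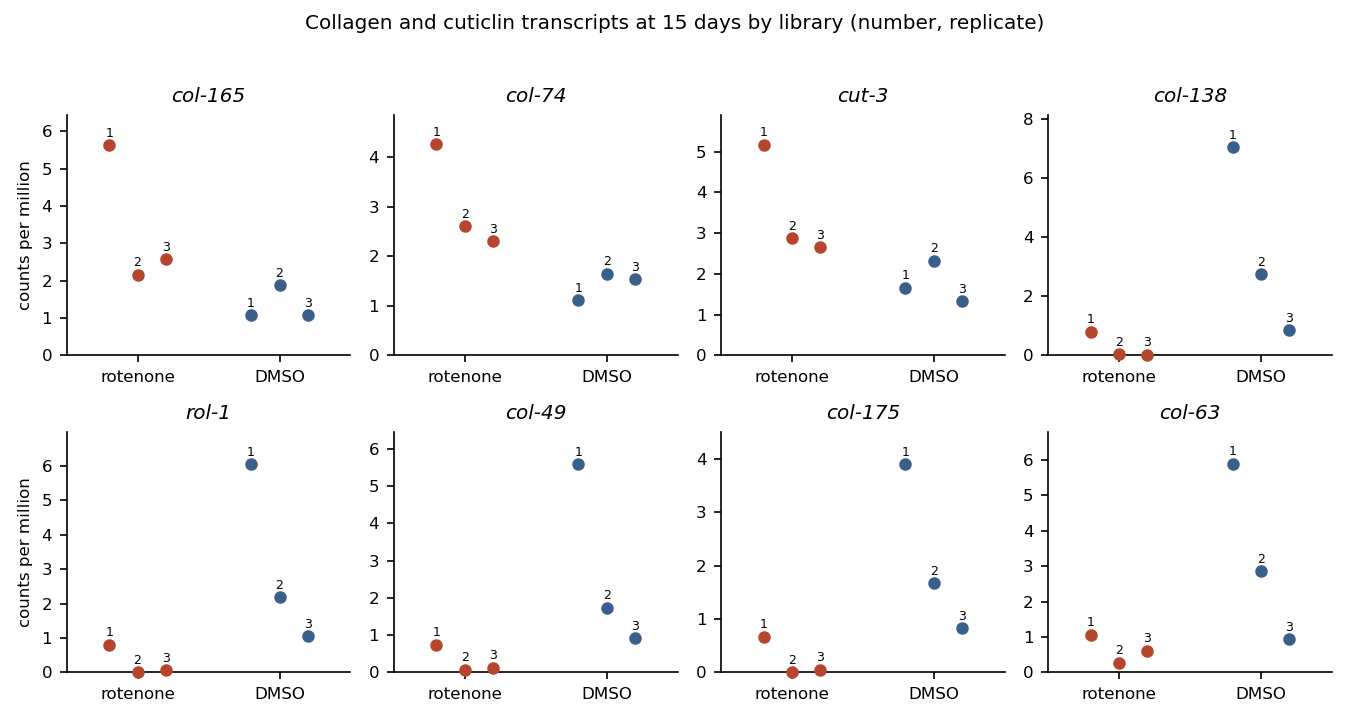
CPM (y axis, from 0) at 15 days of 7 collagen genes and the cuticlin gene cut-3 in the 3 rotenone (red) and 3 DMSO (blue) libraries, each point labelled with its replicate number. DMSO replicate 1 is the highest point for rol-1, col-138, col-49, col-175 and col-63, and rotenone replicate 1 is the highest point for col-165, col-74 and cut-3.

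Few other lists held a called gene. In all, 32 of 48 lists held none, with 1210 tested genes and medians from -0.24 to 0.25. Only 0.408% of all genes tested were called, so a single short list can easily hold none. That does not extend to the 1210 genes together, whose lists were picked for holding none. The lack of a call, here and in the lists above, does not show that the genes of a list were unchanged. The medians of 37 lists lay within 0.05 of 0 at 15 days, beside 13 at 5 days. Among 97 innate immune effectors the saposin-like gene spp-12, of a family of antimicrobial proteins, was the only gene called. It fell to 2.04, 2.36 and 3.14 CPM, against 4.39, 2.95 and 5.25 CPM in DMSO (log2 difference -0.79 ± 0.16, adjusted p = 0.0288, and 0.00118 to 0.182 with 1 library left out), with groups that overlapped, and 4 genes of the list fell with the lane as a block. In 11 of the 97 the rotenone libraries lay wholly below the DMSO libraries (5.63% of all genes tested did) and in 1 wholly above (5.46%), and the median was -0.10, or -0.05 without DMSO replicate 1. Of 138 C-type lectins none was called. The only call among 17 DAF-16 class I genes was icl-1. None of 83 cytosolic ribosomal protein genes (median -0.009, beside -0.20 with 65 falls at 5 days, or 40 under library totals), 33 proteasome genes (0.02), 20 vacuolar ATPase genes (0.003) and 32 autophagy and lysosome genes (0.009) was called. None of the stress reporters hsp-6, hsp-4, hsp-16.2 and sod-3 passed. hsp-6, a mitochondrial chaperone, was at 0.06 ± 0.03, hsp-4, a chaperone of the endoplasmic reticulum, at 0.06 ± 0.03, the small heat shock gene hsp-16.2 at 0.21 ± 0.07, and the superoxide dismutase sod-3 at -0.32 ± 0.13 (adjusted p = 0.75, 0.711, 0.404 and 0.552).

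**Figure D5:**
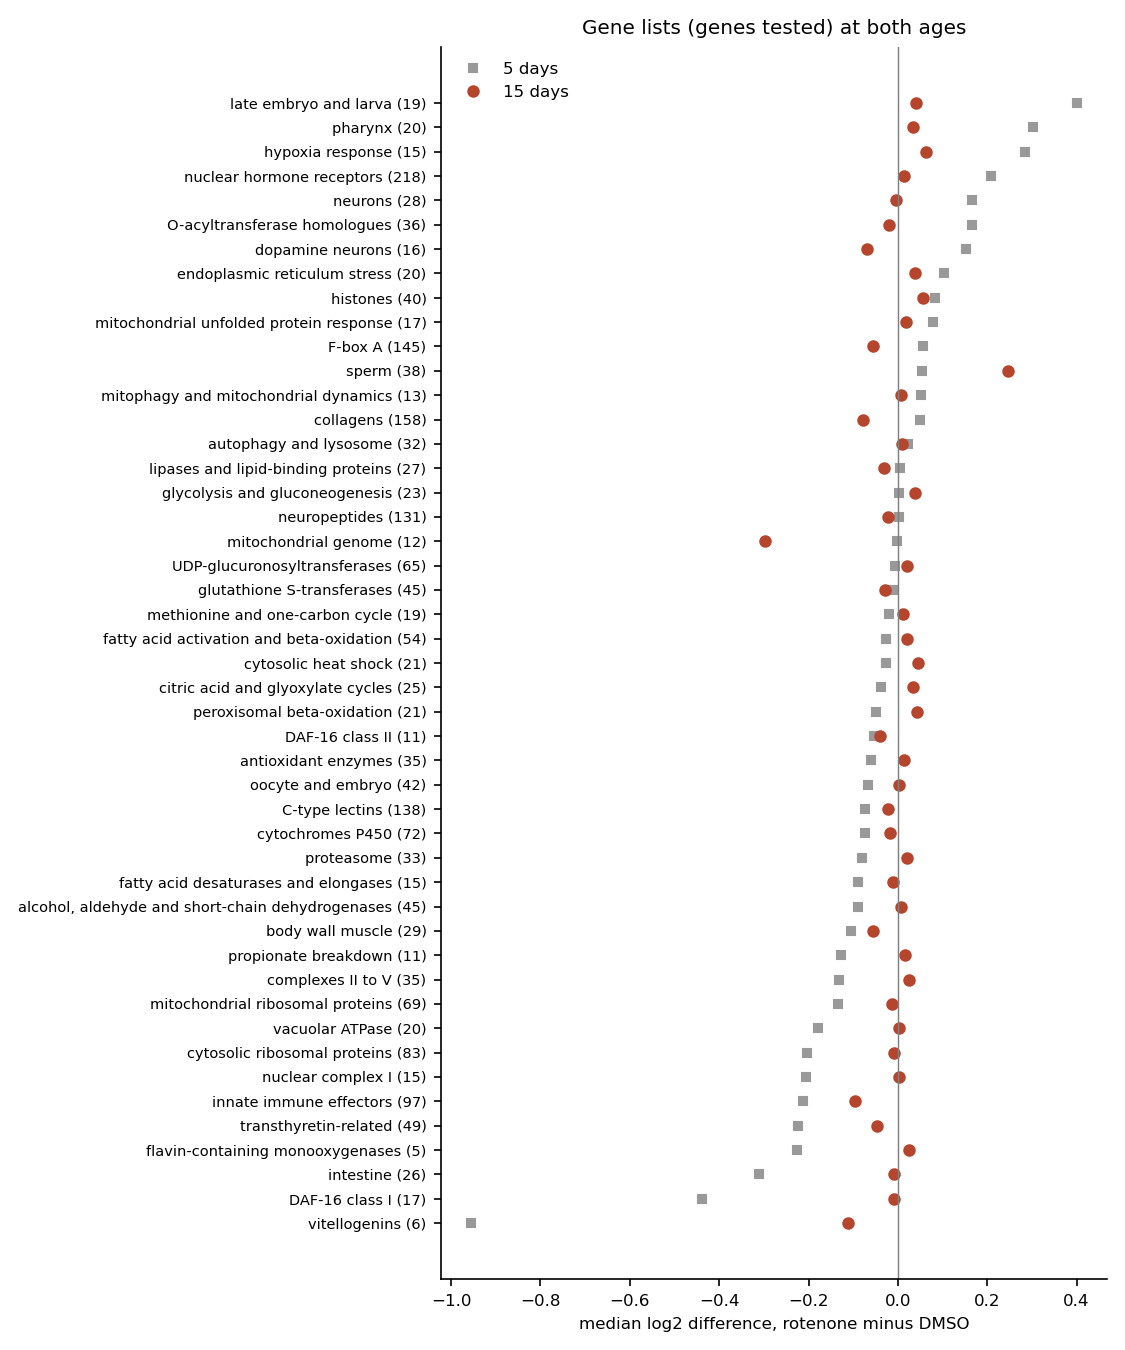
Median log2 difference between rotenone and DMSO worms (x axis) in each gene list with at least 5 tested genes, at 5 days (grey squares) and 15 days (red circles), with the number of tested genes in brackets. Lists run from the highest 5-day median at the top to the lowest at the bottom. Most 15-day medians lie within 0.05 of 0, that of the mitochondrial genome is at -0.30, and that of the sperm genes is at 0.25.

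Tissue markers were present in each library, and their summed levels overlapped between the groups. The 42 oocyte and embryo genes summed to 24818 to 25332 CPM in the rotenone libraries and 24772 to 25213 CPM in the DMSO libraries, and the 26 intestine genes to 2910 to 3157 CPM in the rotenone libraries and 2987 to 3140 CPM in the DMSO libraries. The 28 neuronal genes summed to 1094 to 1164 CPM in the rotenone libraries and 1099 to 1138 CPM in the DMSO libraries. The 38 sperm genes, whose median log2 difference was 0.25, summed to 130.0 to 138.6 CPM in the rotenone libraries and 126.4 to 139.7 CPM in the DMSO libraries, and none was called. Their median was 0.77 without DMSO replicate 1 and 0.04 with a minimum count of 50. Of 29 body wall muscle genes none was called, and in 5 the rotenone libraries lay wholly below the DMSO libraries (5.63% of all genes tested did). Of the 29, 11 lay above 0, and the median was -0.06. The troponins tni-3 (-0.29 ± 0.07, adjusted p = 0.0968) and unc-27 (-0.22 ± 0.07, adjusted p = 0.4) and the troponin C pat-10 (-0.19 ± 0.04, adjusted p = 0.0691) were among those 5, and pat-10 passed with the lane as a block (-0.19, adjusted p = 0.034). All 6 vitellogenins, which encode yolk proteins, lay below 0 with a median of -0.11 (-0.004 without rotenone replicate 3) and overlapping groups, beside 6 falls and a median of -0.95 at 5 days. No tested gene of these lists was at 0 in a 15-day library, except in 3 collagens.

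The other genes called complete the 70. Rises not described above were those of bigr-1 (0.29), DC2.5 (0.29), F25E5.8 (0.31), the D-aspartate oxidase ddo-2 (0.33), ZK470.2 (0.21), K11H12.8 (0.17) and fdgt-1 (0.16). Falls not described above were those of F32H5.3 (-0.51), the asparagine synthetase asns-2 (-0.28) and the phosphoglycolate phosphatase homologues pgph-3 (-0.28) and pgph-2 (-0.21). None of these 11 genes passed in every fit that left out a 15-day library, and asns-2 passed in 4 of the 6 and pgph-2 in none. With 1 library left out the adjusted p reached 0.093 to 0.199 over the 11.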

How the data were processed

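The series holds 12 RNA-seq libraries of whole C. elegans, 4 groups with 3 libraries each. The values used were whole-number gene counts as deposited by the authors. Per the submitters' processing notes, the tools were STAR 2.4.1d, featureCounts 1.4.6-p4 and bcl2fastq 1.8.3, and the build was WBcel235. Strand and multi-mapping settings are not given in the sources used here. A table of RPKM was not used.

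The deposited counts cover 46748 genes, of which 28963 had a count. Genes were kept by filterByExpr of edgeR 4.0.16 (minimum count 10), leaving 17166, scaled by TMM and tested with the edgeR quasi-likelihood F test (R 4.3.3) in 1 model of the 4 groups, with Benjamini-Hochberg adjustment over all genes tested and a threshold of 0.05. The difference between the ages was the difference of the 2 rotenone differences in that model. CPM values are TMM-scaled, log2 differences carry the standard error of the fit, and intervals are 95%. Gene names and coordinates came from an annotation of WBcel235, which matched 46449 IDs and not 299. The steps were tested on simulated counts.

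Replicate numbers correspond to sequencing lanes in the labels. Correlations between same-lane libraries' deviations from their group means were 0.182, -0.0305 and 0.0785 at 15 days and 0.011, -0.029 and 0.0632 at 5 days, and the lane was fitted as a block as an alternative. The other alternatives were RLE factors, library totals, no filter, a minimum count of 50, DESeq2 1.42.0, the 15-day libraries alone and each library left out in turn.

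The gene lists and the rules for naming genes were chosen with earlier results of these data known. Named by rule were the 20 largest rises and 20 largest falls at 15 days with a group mean of at least 1 CPM, the genes called with any 15-day library left out, the 10 largest rises and falls of 5 days, up to 4 genes of each list, genes called in opposite directions, and stress reporters. The other called genes, and those called only with the lane as a block, were named after their values were seen.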

Additional observations from a re-analysis of the deposited data

Results flagged for a closer look

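In 54 named genes the rotenone difference at 15 days differed from that at 5 days by a test of the difference itself (edgeR quasi-likelihood F test, adjusted p 2.39e-12 to 0.0483). Of all 17166 genes tested, 25.7% passed that test. The 54 genes had been named for a call at 15 days, for the largest differences at 5 days or as stress reporters. Apart from the reporters, they were thus chosen by values that the test compares, and their passing is no separate evidence. That holds most for genes named for their 5-day differences and not called at 15 days. Values in brackets are the log2 difference at 15 days minus that at 5 days, which was negative in 26 genes and positive in 28. With library totals the median of all genes moved by over 0.1 at 5 days, as given above, which bears on the smallest of these values.

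Of genes called higher at both ages, acs-2 (-0.87), chca-1 (-0.86), fmo-2 (-0.76), cyp-33C8 (-0.75), adh-1 (-0.73), ugt-2 (-0.62), cysl-2 (-0.62), cyp-13A5 (-0.53), nhr-61 (-0.45), K11H12.8 (-0.17) and cysl-1 (-0.15) had smaller differences at 15 days. The cuticle genes col-74 (0.70) and col-165 (1.04) and also mtre-1 (0.48) had larger ones. Of genes called lower at both ages, acox-1.5 (0.31), ZK1290.5 (0.33), ugt-44 (0.42), pgph-3 (0.52) and gpdh-1 (0.77) were nearer to 0 at 15 days.

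Called at 15 days and not at 5 days were mak-1 (0.24), C06B3.6 (0.26), mxl-3 (0.30), icl-1 (0.43) and F18E3.13 (0.52), which rose, and ets-4 (-0.29), ND4 (-0.25) and R07E3.4 (-0.22), which fell. Called in opposite directions were faah-2 (0.38), daf-22 (0.47), C29F7.2 (0.79), endu-2 (1.34), pho-9 (1.53) and C23G10.11 (2.43), higher at 15 days and lower at 5 days. gpx-3 (-0.81) and srap-1 (-0.46) were lower at 15 days and higher at 5 days.

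Genes called higher at 5 days and not called at 15 days were nhr-265 (-2.77), hacd-1 (-1.89), F40G12.5 (-1.82), clec-70 (-1.72), cyp-13A7 (-1.68), gst-14 (-1.65), clec-9 (-1.48), cyp-13A8 (-1.21), gst-4 (-0.42) and hsp-6 (-0.14). Those called lower at 5 days and not called at 15 days were fat-5 (1.81), T12D8.5 (1.96), fat-7 (1.99), col-183 (2.02), T28D6.3 (2.03), oac-32 (2.14), C32H11.4 (2.57), pud-4 (2.83) and pud-3 (3.56).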

How the results depend on the processing

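Of the 48 rises and 22 falls at 15 days, 48 and 21 remained with RLE factors, 41 and 22 with library totals, 46 and 14 with a minimum count of 50, 46 and 14 with DESeq2, 30 and 7 with the 15-day libraries alone, and 48 and 21 with the lane as a replicate block. The genes that passed all 7 alternatives numbered 34, 27 of them rises and 7 falls. Without the filter on low counts, 158 genes rose and 164 fell of 28963 tested. With the 15-day libraries fitted alone, 31 rose and 14 fell. With the replicate block 63 rose and 55 fell. Leaving out any of the 12 libraries gave 25 to 54 rises and 6 to 36 falls at 15 days, of which the 5-day omissions gave as few as 9 falls, without rotenone replicate 1 of that age. At 5 days library totals gave 6500 rises and 1772 falls, and DESeq2 gave 2365 rises. The 47 genes called in the same direction at both ages became 189 without the filter and 22 to 53 with a library left out. The 15-day median of genes raised at 5 days was 0.00259 with library totals and 0.0207 to 0.0402 with a library left out, and that of genes lowered at 5 days was -0.0328 with library totals. The share of mitochondrial counts differed by -0.0921 to -0.0513 percentage points with a library left out. Over named genes, called or not, and settings, 4256 comparisons stayed on their side of the threshold, 306 lost and 66 gained significance. The 4256 include genes called in neither fit, whose direction was not checked, and only genes called in the main fit could lose significance. No gene called in the main fit changed sign. The cause of these changes was not tested. Counts of a few CPM, as in the cuticle genes, limit what can be told there.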

Other observations

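Of the 70 genes called at 15 days, 10 lay within 10 kb of another called gene, in 5 pairs that each moved in 1 direction. How often tested genes lie so close was not worked out, so the count shows no clustering. Beside the B0205 pair, ATP6 and ND4, these were pgph-3 and pgph-2 (1280 bases apart on chromosome V), ddo-2 and F25E5.8 (224 bases apart on chromosome V) and cyp-13B1 and C29F7.2 (6434 bases apart on chromosome X). By chromosome, called genes were 14.3% of those tested in mitochondrial DNA (2 of 14), 0.601% on X, 0.571% on II, 0.446% on V, 0.287% on IV, 0.266% on I and 0.198% on III.

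With the lane as a block, genes that did not pass without it included the collagens bli-6 (-1.79, adjusted p = 0.000479), col-73 (-1.62, adjusted p = 0.000914), dpy-5 (-1.31, adjusted p = 0.0132) and dpy-13 (-1.16, adjusted p = 0.047), values of the blocked edgeR fit. They also included the mitochondrial genes ND5 (-0.34, adjusted p = 0.000663), COX1 (-0.25, adjusted p = 0.0007) and COX3 (-0.25, adjusted p = 0.0007), and the glycogenin gyg-1 (0.18, adjusted p = 0.0397), which starts glycogen chains.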
